A study of Nannochloropsis oceanica with 18 samples.

Results

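The 264 regions described here were stretches of chromatin in the marine microalga Nannochloropsis oceanica IMET1 that carried an intermediate level of histone H3 lysine 27 acetylation (H3K27ac) and little histone H3 lysine 36 dimethylation (H3K36me2) while nitrogen was replete. They made up 6.94% of the 3803 regions for which chromatin immunoprecipitation sequencing (ChIP-seq) values were deposited. Each value is a coverage over the region (pileup), and the local background expected there (lambda) was deposited beside it, so that the level of a mark is given below as the ratio of pileup to background. A region was a member when it was 1000 to 11999 bp wide, lay at least 50000 bp from both ends of its chromosome as the regions delimit it, had a mean H3K27ac ratio of at least 2 and under 3.5 in the nitrogen-replete libraries, and had an H3K36me2 ratio under 0.9 in those cells. The members were thus chosen by nitrogen-replete H3K27ac and H3K36me2, and their levels of both marks in those cells, and every difference of these marks from those cells, are given as description without a test.

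All cells were of the strain IMET1. The group C0 was taken from a nitrogen-replete culture in logarithmic growth, and the groups N1 and N2 were taken after 1 and 2 days in nitrogen-free medium. In each group H3K27ac, H3K36me2 and lysine crotonylation (Kcr) were profiled, with 2 labelled libraries per mark and group, or 18 libraries in 9 groups. Before N1 and N2 were sampled the cells were washed, moved to new medium and grown under weaker light than the culture that gave C0, so that the effects of nitrogen, of the transfer and of light cannot be told apart in any comparison with C0. The labels and the study's methods name different antibodies, and H3K27ac and H3K36me2 carry 1 and the same catalogue number in the labels, so that the identity of the antibodies cannot be settled here.

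Acetylation of H3K27 and crotonylation neutralise the charge of lysine residues on histones, and in most eukaryotes both are found at active promoters and other open chromatin. H3K36me2 is deposited by SET-domain methyltransferases, tends to lie over transcribed gene bodies and is often low at promoters, so that a narrow acetylated region with little H3K36me2 is a common arrangement at the start of genes. N. oceanica is known for storing triacylglycerol when nitrogen is withdrawn. No gene annotation of the coordinates was used here, so the regions are named by chromosome, start and end as the deposited tables give them, and whether a given region lies in a promoter, an exon or an intron is not analysed here.

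The 9 deposited tables held the same values for the same regions, which lay on 30 chromosomes and did not overlap. Both libraries of H3K36me2 in C0 held identical values, as did both libraries of Kcr in N2, and each of these pairs was counted as 1 library, which left 16 distinct libraries. The other 7 pairs were closer to each other than independent counts of their size would be (chi-square over its degrees of freedom 0.667 to 0.774), and their log2 enrichments correlated at r = 0.874 to 0.993 across regions. Since the labels do not say that the libraries of a pair came from separate cultures, the tests compare libraries, and their errors cover the spread between these libraries, which may be technical. Each pileup was a whole multiple of a step for its library, and the inverse of that step was 1.86 to 7.29 M, which is the depth in fragments if 1 step is 1 fragment. For H3K36me2 in C0 the inverse was 2.63 M, or 5.26 M if a step stands for 2 fragments there. Any such factor scales pileup and background alike and cancels in the ratio. The background was nearly the same for all marks within a condition (r = 0.989 to 1.000 across regions in C0, 0.991 to 0.999 in N1 and 0.998 to 1.000 in N2), so that a comparison of Kcr with C0 uses the background that also entered the rule, and only the comparisons of N2 with N1 are free of it.

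In nitrogen-replete cells the rule held the members and the other regions of their class to the same range of H3K27ac. It set the members apart by H3K36me2. Of the 905 regions that met the rules for width, position and H3K27ac, 264 (29.2%) fell under the H3K36me2 threshold, and the other 641 are called comparison regions below. The median H3K36me2 ratio in C0 was 0.75 in the members (0.09 to 0.90) and 1.20 in the comparison regions, and 186 members were also under 0.8. The difference lay in the pileup, whose median was 28.5 in the members and 48.3 in the comparison regions, and not in the background (38.4 and 39.6). The median C0 ratio of H3K27ac was 2.71 in the members and 2.78 in the comparison regions. Kcr was not used by the rule, but over all regions its C0 log2 ratio correlated at r = 0.95 with that of H3K27ac. The rule thus also favoured regions high in C0 Kcr. The median C0 ratio of Kcr was 2.69 in the members and 2.85 in the comparison regions. Kcr reached a ratio of 2 in 239 members (90.5%) and in 615 comparison regions (95.9%), so that nearly all members carried both acyl marks.

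The members nearest to each threshold had values close to those of regions left out. Just inside the H3K36me2 threshold were chr10:242240-250395 and chr3:839393-846359, which both had a ratio of 0.90, and just outside it were chr16:435607-440091 and chr27:54021-55224, also at 0.90. The lowest H3K27ac ratios inside were 2.00 on chromosome 26 (590624 to 592910) and 2.00 on chromosome 7 (701814 to 703002), against 2.00 on chromosome 10 (1189385 to 1190565) and 1.99 on chromosome 13 (923670 to 924860) just outside. The highest ratios inside were 3.49 on chromosome 20 (767955 to 771075) and 3.49 on chromosome 17 (730252 to 734343), against 3.52 on chromosome 13 (79161 to 80641) and 3.52 on chromosome 3 (201968 to 203143) just outside.

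The members were mostly narrow. Their median width was 1575 bp (quartiles 1292 and 2707 bp), against 5290 bp in the comparison regions (3280 and 7851 bp), and 169 members (64.0%) were narrower than 2000 bp, against 81 comparison regions (12.6%). Read the other way, 169 of the 250 acetylated interior regions of 1000 to 1999 bp were members (67.6%). The share was 40.9% at 2000 to 2999 bp, 16.7% at 3000 to 5999 bp and 3.28% at 6000 to 11999 bp, where 9 of 274 regions were members. Width and H3K36me2 level were thus tied in C0, and each later comparison of members with comparison regions also compares narrow with wide regions.

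**Figure D1:**
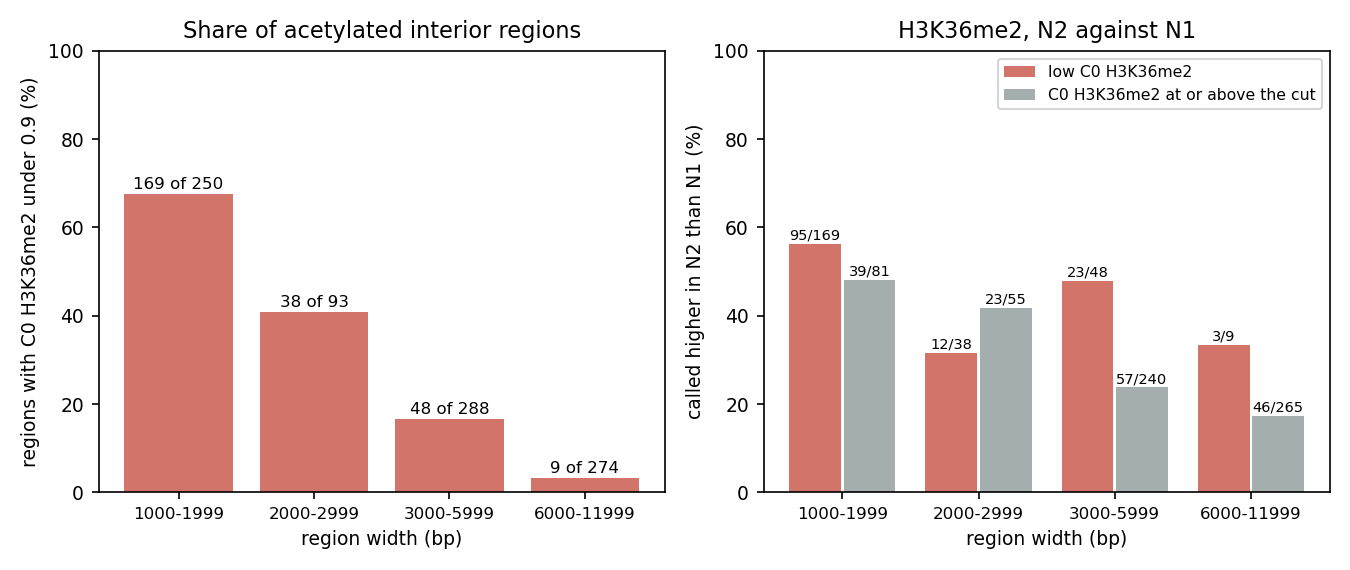
Left, share of acetylated interior regions (%) that had an H3K36me2 ratio under 0.9 in C0, by width class in bp, with the number of regions above each bar. The share falls from 67.6% in the narrowest class to 3.28% in the widest. Right, share of regions (%) called higher in N2 than in N1 for H3K36me2, for members and comparison regions of each width class, with the counts above the bars, which are 95 of 169 members and 39 of 81 comparison regions in the narrowest class.

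The members lay on all 30 chromosomes and mostly stood alone. Their share of the acetylated interior regions was highest on chromosome 28 (15 of 25), chromosome 23 (15 of 26), chromosome 30 (8 of 14) and chromosome 6 (17 of 34), and lowest on chromosome 5 (4 of 35) and chromosome 8 (5 of 35). The listed regions on either side of a member had a median C0 H3K36me2 ratio of 1.24 with 15.5% of them under 0.9, against 1.21 and 20.3% for the neighbours of comparison regions. Their median C0 H3K27ac ratio was 1.86, against 2.70 for the neighbours of comparison regions. In 17 places 2 members followed each other in the list with no region between them, which involved 32 members. One such pair was chr26:565456-568855 and chr26:571144-572697, and another, with a gap of 432 bp, was chr28:221516-225566 and chr28:225999-227323.

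H3K36me2 in the members was still low after 1 day without nitrogen and was higher after 2 days. The median ratio was 0.75 at C0, 0.74 at N1 and 0.89 at N2, against 1.20, 1.14 and 1.20 in the comparison regions and 1.18, 1.13 and 1.11 over all regions. By library, the lowest, median and highest member had ratios of 0.09, 0.75 and 0.90 at C0. They were 0.11, 0.74 and 1.29 in N1 replicate 1 and 0.20, 0.75 and 1.27 in N1 replicate 2. They were 0.24, 0.88 and 1.73 in N2 replicate 1 and 0.27, 0.89 and 1.69 in N2 replicate 2. Both N2 libraries thus shifted upwards by a similar amount, while the lowest members stayed far below the background.

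**Figure D2:**
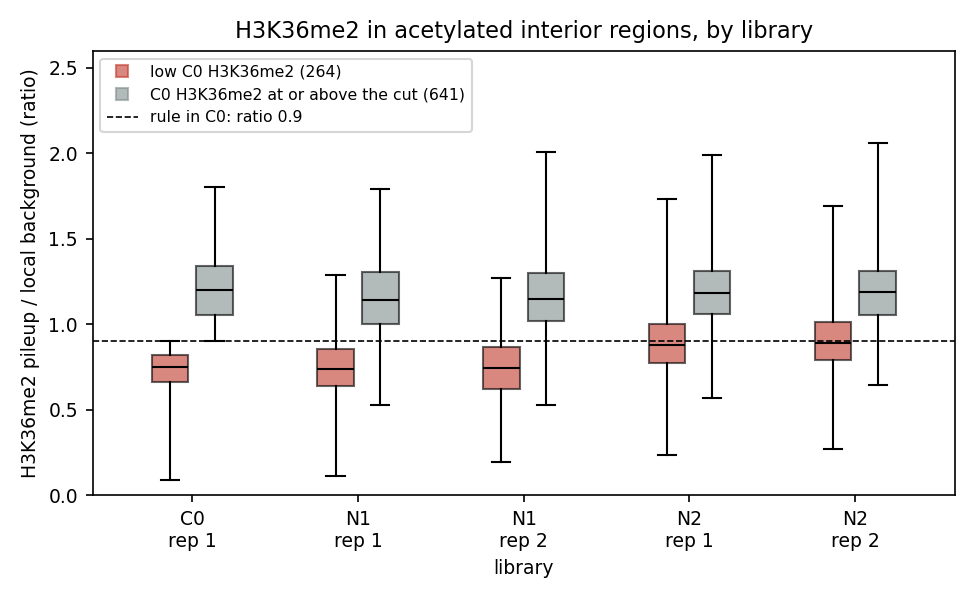
Ratio of H3K36me2 pileup to local background (y axis) in each distinct library (x axis) for the 264 members and the 641 comparison regions. Boxes span the quartiles with the median as a line, whiskers run to the lowest and highest region, and the dashed line marks the ratio of 0.9 used for selection in C0. The member medians are 0.75 in C0, 0.74 and 0.75 in N1, and 0.88 and 0.89 in N2, whereas the comparison regions stay between 1.15 and 1.20.

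Low H3K36me2 in C0 went along with low H3K36me2 in the libraries that the rule did not use. By the mean of both libraries, 142 members (53.8%) were under 0.9 in N2, against 25 comparison regions (3.90%). In N1 the counts were 215 members (81.4%) and 81 comparison regions (12.6%). Over all regions 18.1% were under 0.9 in N2 and 27.6% in N1. Library by library, 114 members were under 0.9 in both N2 libraries, 197 in both N1 libraries and 103 in all 4, against 13, 59 and 7 of the comparison regions. A ratio of 1 or more in both libraries was reached by 45 members in N2 and by 11 in N1. The counts were 507 and 454 of the 641 comparison regions. They were 73 and 37 of the 671 other regions with a C0 H3K36me2 ratio under 0.9. As a description over the 264 members, which share libraries and background, the C0 log2 enrichment of H3K36me2 correlated at r = 0.64 with that of N1 and at r = 0.68 with that of N2.

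Between N2 and N1, H3K36me2 rose in 133 of the 264 members (50.4%) and fell in 6 (2.27%) at an adjusted p under 0.05 (limma-trend, Benjamini-Hochberg over the 3803 regions). Over all regions 27.1% rose and 17.2% fell. The median log2 difference was 0.28 in the members and 0.05 over all regions, and 2 of the members that rose did so by more than 2-fold. The 641 comparison regions had 165 that rose (25.7%) and 88 that fell (13.7%). Of the other 671 regions with a C0 H3K36me2 ratio under 0.9, which missed a rule for width, position or acetylation, 389 rose (58.0%) and 20 fell, with a median log2 difference of 0.36, so that the rise was not particular to acetylated interior regions. Both N2 libraries lay above both N1 libraries in 182 members (68.9%) and below both in 26 (9.85%). The shares were 42.9% and 28.2% of the comparison regions, and 75.6% and 7.15% of the other 671 regions. They were not counted over all regions. Without N1 replicate 2 fewer members rose, and without N2 replicate 2 fewer fell, as was the case over all regions. The median log2 difference was then 0.26 and 0.27 in the members, against 0.04 and 0.05 over all regions. With the libraries scaled to an equal median and spread, 87 members rose and 11 fell, against 930 and 493 of the 3803 regions.

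**Figure D3:**
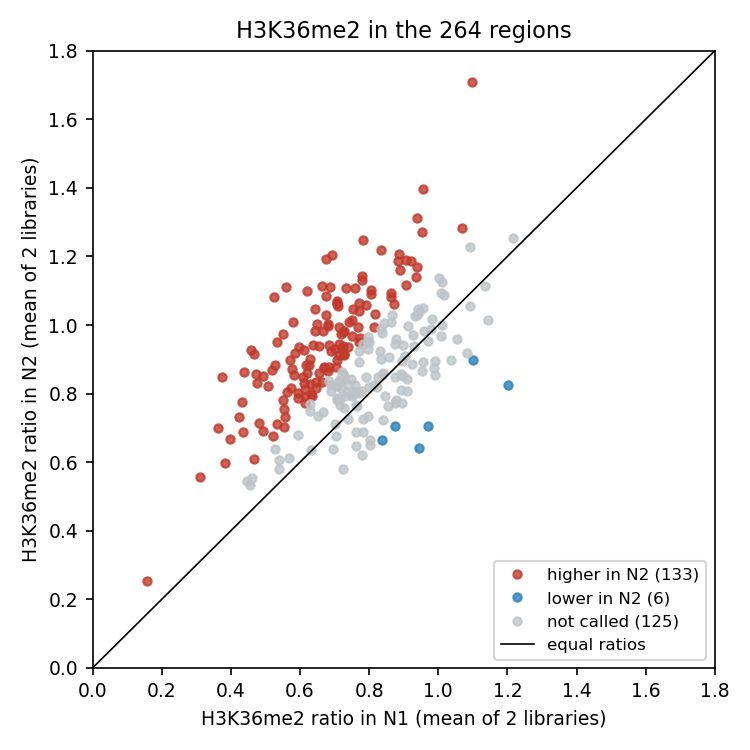
Mean H3K36me2 ratio of each of the 264 members in N2 (y axis) against N1 (x axis), each the mean of 2 libraries, with the line of equal ratios. Red points are the 133 members called higher in N2, blue points the 6 called lower, and grey points those that did not pass the test. Most points lie above the line, and the 6 blue points all had N1 ratios above 0.8.

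The shares called were also taken within classes of width. At 1000 to 1999 bp, H3K36me2 rose between N2 and N1 in 95 of 169 members (56.2%) and in 39 of 81 comparison regions (48.1%), and the median log2 difference was 0.32 and 0.25. At 2000 to 2999 bp it rose in 12 of 38 members and 23 of 55 comparison regions. At 3000 to 5999 bp it rose in 23 of 48 members (47.9%) and 57 of 240 comparison regions (23.8%), and at 6000 to 11999 bp in 3 of 9 and 46 of 265. In the 2 narrower classes neither set had the larger share in both, and in the 2 wider classes the members had the larger share. These differences between sets were not tested, and neither was the part of width in them.

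The largest rises of H3K36me2 between N2 and N1 came in regions that had been lower in N1 than in C0, with 1 exception. Choosing regions by this difference itself favours low N1 values. At chr25:203972-205281 the ratio was 0.83 at C0, 0.36 and 0.39 at N1, and 0.81 and 0.88 at N2 (log2 difference of N2 over N1 1.14 ± 0.14 SE, adjusted p = 2.2e-09). At chr11:211911-214985 it was 0.83 at C0, 0.54 and 0.51 at N1, and 1.17 and 1.00 at N2 (1.01 ± 0.13, adjusted p = 2.7e-09). At chr21:650572-652203 it was 0.79 at C0, 0.45 and 0.47 at N1, and 0.97 and 0.89 at N2 (0.99 ± 0.13, adjusted p = 1.9e-08). All 3 regions were thus below C0 in both N1 libraries, and in N2 the first was back near its C0 ratio while the other 2 were above it. The exception was chr18:159990-161424, with 0.53 at C0, 0.59 and 0.53 at N1, and 1.06 and 1.16 at N2 (0.97 ± 0.13, adjusted p = 1.6e-08), where N1 was level with C0. The acyl marks did not follow 1 pattern in these regions. H3K27ac had ratios of 1.76 and 1.63 at N2 and 1.23 and 1.04 at N1 on chromosome 25, so that it rose together with H3K36me2 (0.57 ± 0.12, adjusted p = 0.00072). On chromosome 18 (159990 to 161424) its ratios were 1.40 and 1.74 at N2 and 2.92 and 2.55 at N1, so that it fell while H3K36me2 rose (-0.80 ± 0.12, adjusted p = 2.4e-05).

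The 4 members named for a fall of H3K36me2 between N2 and N1 showed the opposite course, and choosing them by the fall itself favours high N1 values. At chr18:324092-325646 the ratio was 0.66 at C0, 0.88 and 1.01 at N1, and 0.63 and 0.65 at N2 (-0.54 ± 0.13, adjusted p = 0.00038). At chr11:254619-258480 it was 0.88 at C0, 1.29 and 1.11 at N1, and 0.84 and 0.82 at N2 (-0.53 ± 0.11, adjusted p = 9.3e-05). At chr26:565456-568855 it was 0.60 at C0, 0.97 in both N1 libraries, and 0.77 and 0.64 at N2 (-0.45 ± 0.13, adjusted p = 0.0025). In all 3 the N1 libraries stood above C0 and N2, and H3K27ac was also highest in N1, with N1 ratios of 4.03 and 3.96, of 3.36 and 2.82, and of 4.80 and 5.08. H3K27ac then fell in N2 in each of them, by 0.80 ± 0.09, by 0.66 ± 0.11 and by 0.98 ± 0.08 on the log2 scale (adjusted p = 7.8e-07, 4.4e-05 and 2.0e-07). At chr6:1290283-1291481 the ratio was 0.77 at C0, 0.87 and 0.80 at N1, and 0.69 and 0.64 at N2 (-0.33 ± 0.13, adjusted p = 0.030). That last call was lost without N1 replicate 1 (adjusted p = 0.24), N1 replicate 2 (0.080) or N2 replicate 2 (0.14), and the call on chromosome 26 was lost without N2 replicate 2 (0.062). On pileup alone, without division by the background, H3K36me2 was not lower in N2 at 3 of the 4, with log2 differences of 0.075 on chromosome 18, 0.088 on chromosome 26 and 0.027 on chromosome 6.

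**Figure D4:**
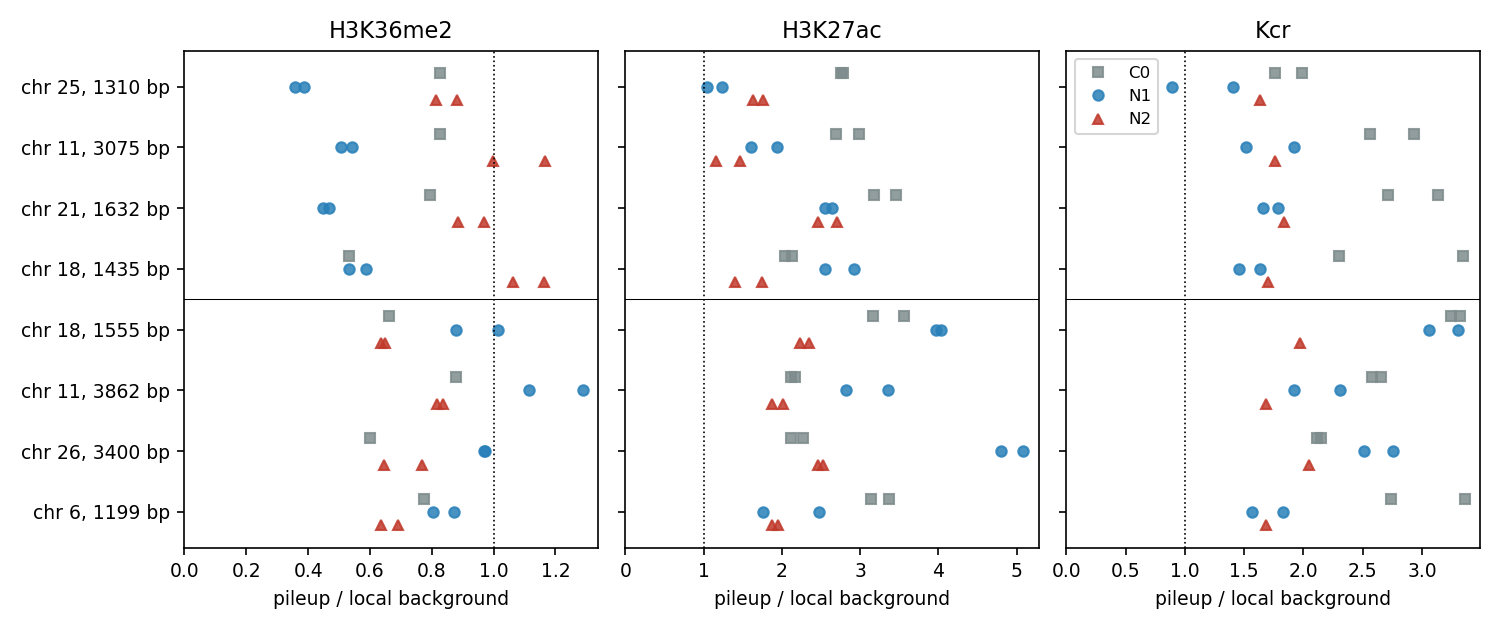
Ratio of pileup to local background (x axis) for H3K36me2, H3K27ac and Kcr in each library of C0, N1 and N2 for 8 named members (rows, by chromosome and width in bp). The upper 4 rows are the members with the largest rise of H3K36me2 between N2 and N1, and the lower 4 those with the largest fall. In the upper rows the N2 triangles lie right of the N1 circles for H3K36me2, and in 3 of the lower rows the N1 circles stand apart to the right for H3K27ac as well.

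The members with the least H3K36me2 in C0 kept ratios well under 1 at all times. The lowest was chr2:1456219-1457323, with 0.09 at C0, 0.11 and 0.20 at N1, and 0.24 and 0.27 at N2. Its N2 ratios were higher than its N1 ratios (0.61 ± 0.22, adjusted p = 0.019), and H3K27ac there was 3.03 and 2.93 at C0, 2.34 and 2.66 at N1, and 2.45 and 1.94 at N2. Next came chr23:404158-405767 (0.32 at C0, 0.50 and 0.40 at N1, 0.58 and 0.52 at N2) and chr3:584978-586202 (0.38 at C0, 0.44 and 0.43 at N1, 0.87 and 0.69 at N2). The last of these rose between N2 and N1 (0.79 ± 0.15, adjusted p = 1.8e-05), whereas the region on chromosome 23 did not pass the test (0.27 ± 0.16, adjusted p = 0.17). At chr30:332111-336004 the ratio was 0.40 at C0, 0.30 and 0.32 at N1, and 0.51 and 0.60 at N2, a rise between N2 and N1 (0.78 ± 0.16, adjusted p = 9.8e-05). At chr18:652079-654549 it was 0.40 at C0, 0.42 and 0.49 at N1, and 0.56 and 0.51 at N2, which did not pass the test (0.21 ± 0.16, adjusted p = 0.27).

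Set against C0, as a description only, H3K36me2 moved little in N1 and was mostly higher in N2. The median log2 difference of the members was 0.04 at N1 (-1.10 to 0.93) and 0.29 at N2 (-0.31 to 1.33). The rule fixed a low C0 value, so nothing is read from the sign. The largest differences in N1 were 0.93 ± 0.16 at chr24:548544-554772, where the ratio was 0.41 at C0, 0.79 and 0.77 at N1 and 0.80 and 0.81 at N2, and 0.92 ± 0.17 at chr13:407820-408959, where it was 0.42 at C0, 0.77 and 0.84 at N1 and 0.64 and 0.69 at N2. Both had more H3K36me2 in every deprived library than in C0. The highest ratio reached by any member was at chr28:221516-225566, which had 0.83 at C0, 1.17 and 1.03 at N1, and 1.73 and 1.69 at N2. There the rise between N2 and N1 was 0.63 ± 0.10 (adjusted p = 2.6e-07), while H3K27ac was 2.34 and 2.27 at C0, 2.89 and 3.18 at N1, and 2.13 and 2.43 at N2, so that the region carried both marks above background in N2.

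The median H3K27ac ratio of the members was lower in N2 than in N1. The median ratio was 2.71 at C0, 2.52 at N1 and 2.03 at N2, against 2.78, 2.56 and 2.08 in the comparison regions. A ratio of at least 2 was held by all 264 members in C0 by the rule, by 205 (77.7%) in N1 and by 137 (51.9%) in N2, and 30 members exceeded the upper limit of 3.5 in N1. As a description, the median log2 difference from C0 was -0.14 at N1 and -0.42 at N2, but after centring each library on its median it was 0.03 at both times, so that the direction rests on the scale shared by all regions.

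Between N2 and N1, H3K27ac fell in 146 members (55.3%) and rose in 15 (5.68%), against 41.7% and 19.6% over all regions. The comparison regions had 391 that fell (61.0%) and 21 that rose (3.28%). The median log2 difference was -0.29 in the members, -0.31 in the comparison regions and -0.14 over all regions. After centring each library on its median, 61 members fell and 60 rose, against 585 and 1382 of the 3803 regions. The median log2 difference was then -0.01 in the members and 0.13 over all regions, so that the counts depended on the scale.

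The members named for a fall of H3K27ac between N2 and N1 lost most of their enrichment. At chr3:1010019-1011193 the ratio was 2.74 and 2.21 at C0, 3.39 and 3.01 at N1, and 1.41 and 1.21 at N2 (-1.27 ± 0.12, adjusted p = 3.0e-07). At chr15:63966-65021 it was 2.11 and 2.00 at C0, 3.36 and 3.77 at N1, and 1.51 and 1.81 at N2 (-1.09 ± 0.11, adjusted p = 4.7e-07). At chr11:833831-835334 it was 2.72 and 2.69 at C0, 3.16 and 2.999 at N1, and 1.78 and 1.21 at N2 (-1.06 ± 0.13, adjusted p = 3.4e-06). In these 3 regions N1 was above C0 and N2 below it in every library, a course that choice by the largest fall favours. At chr9:1103351-1104910 it was 2.84 and 2.67 at C0, 2.79 and 2.56 at N1, and 1.22 and 1.34 at N2 (-1.05 ± 0.11, adjusted p = 5.8e-07), with C0 and N1 overlapping. Kcr differed among the 4, since on chromosome 3 it was 1.97 at N2 and 1.82 and 1.64 at N1 and did not pass the test (0.19 ± 0.15, adjusted p = 0.38), whereas on chromosome 15 it fell as H3K27ac did (-0.65 ± 0.11, adjusted p = 0.00035).

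H3K27ac was above C0 in N1 in 96 of the 264 members by the fitted difference, and 5 of these differences exceeded 2-fold. The counts were 1440 and 63 of all 3803 regions, and 232 and 5 of the 641 comparison regions. The largest differences in N1, given without a test, were 1.19 ± 0.09 at chr23:520908-522861 (2.22 and 2.11 at C0, 5.35 and 4.59 at N1, 3.18 and 3.04 at N2), 1.16 ± 0.08 at chr26:565456-568855 (2.27 and 2.11 at C0, 4.80 and 5.08 at N1, 2.52 and 2.46 at N2) and 1.15 ± 0.07 at chr3:839393-846359 (3.33 and 3.20 at C0, 7.56 and 6.95 at N1, 4.10 and 4.10 at N2). In all 3 the gain was partly lost in N2, and the fall between N2 and N1 passed the test (by 0.67 ± 0.09, 0.98 ± 0.08 and 0.82 ± 0.07, adjusted p = 6.2e-06, 2.0e-07 and 2.0e-07). The region next to the one on chromosome 26, chr26:571144-572697, had 2.06 and 2.07 at C0, 4.04 and 3.63 at N1, and 2.35 and 2.75 at N2, so that both neighbours followed the same course. By contrast, chr10:242240-250395 stayed high, with 3.09 and 3.19 at C0, 5.39 and 4.83 at N1, and 4.96 and 5.56 at N2 (N2 over N1 0.04 ± 0.08, adjusted p = 0.66). The region chr1:88864-93388 had 2.52 and 2.53 at C0, 4.69 and 4.15 at N1, and 3.20 and 4.30 at N2. Its N2 libraries differed widely.

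Kcr was lower in the deprived cells than in C0 in most members, as in most regions of the table. No member had a C0 Kcr ratio under 0.9, against 937 of all regions (24.6%). The H3K27ac limit of the rule had favoured regions high in C0 Kcr, so the shares below are not independent of the rule. The median ratio was 2.69 at C0, 1.84 at N1 and 1.94 at N2, and the highest member was at 4.37 at C0, 3.66 at N1 and 2.74 at N2. For N1 against C0, Kcr fell in 213 members (80.7%) and rose in 8 (3.03%), against 64.1% and 16.4% over all regions, and 31 of the falls exceeded 2-fold. For N2 against C0 it fell in 190 (72.0%) and rose in 3 (1.14%), against 56.1% and 7.52%, and 10 of the falls exceeded 2-fold. The comparison regions had larger shares that fell, 86.4% in N1 and 78.6% in N2. The median log2 difference of the members was -0.56 at N1 and -0.47 at N2, against -0.43 and -0.38 over all regions, so that most of it was common to the table. After centring each library on its median, 55 members fell and 81 rose in N1, against 533 and 1625 of the 3803 regions. For N2 the centred median log2 difference was -0.01 in the members and 0.08 over all regions.

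Between N2 and N1, Kcr rose in 43 members (16.3%) and fell in 20 (7.58%), against 11.4% and 7.47% over all regions, with a median log2 difference of 0.07 against 0.01. These shares lie near the background. After centring, the median log2 difference was -0.06 in the members and -0.13 over all regions, so that the direction of the member median depended on the scale. The Kcr value of N2 rests on 1 library, for which the fit assumed the spread seen in C0 and N1. In the 264 members, which share libraries and background, H3K27ac and Kcr correlated across regions at r = 0.34 at C0, where the rule limited the range of H3K27ac, at r = 0.79 at N1 and at r = 0.69 at N2.

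**Figure D5:**
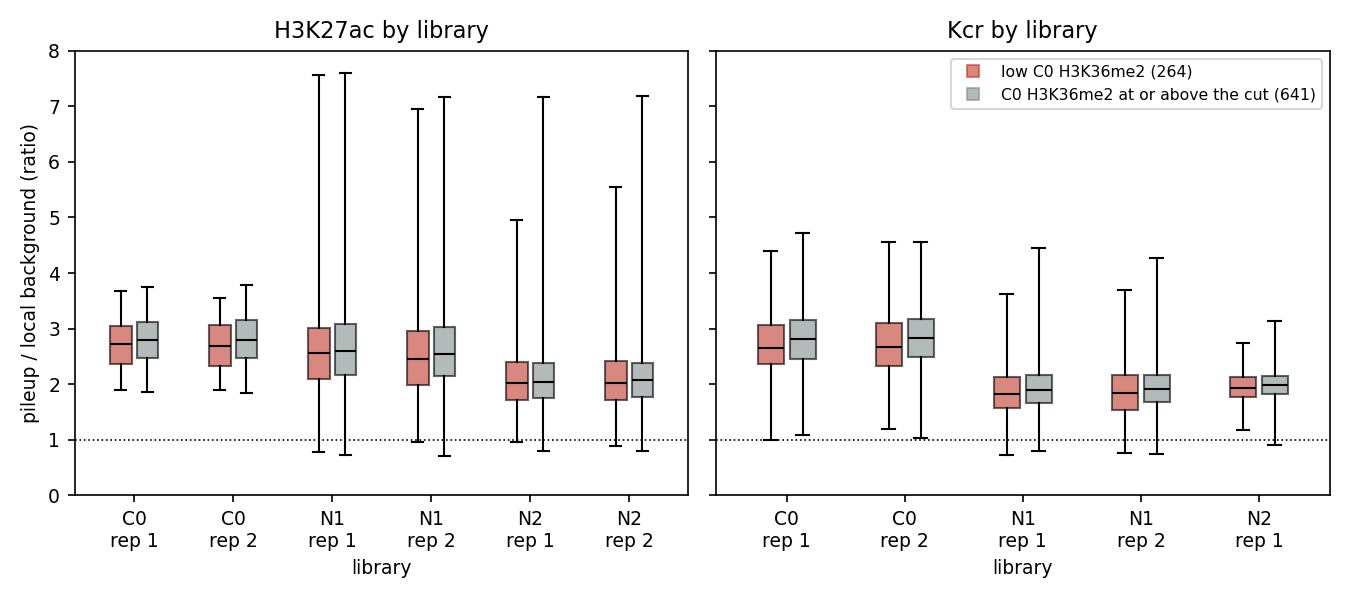
Ratio of pileup to local background (y axis) for H3K27ac (left) and Kcr (right) in each distinct library (x axis) for the 264 members and the 641 comparison regions. Boxes span the quartiles with the median as a line, and whiskers run to the lowest and highest region. Members and comparison regions lie close together in every library, with member medians by group of 2.71, 2.52 and 2.03 for H3K27ac and of 2.69, 1.84 and 1.94 for Kcr in C0, N1 and N2. For H3K27ac in C0 the rule held both sets to the same range.

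Several members had far less of both acyl marks in N1 than in C0 and more again in N2. At chr29:192448-194645 the Kcr ratio was 2.21 and 2.12 at C0, 0.73 and 0.79 at N1, and 2.01 at N2, a fall in N1 (-1.49 ± 0.13, adjusted p = 1.8e-10) and a rise between N2 and N1 (1.38 ± 0.16, adjusted p = 3.7e-06), which was the only Kcr change between these times in a member that exceeded 2-fold. H3K27ac there was 3.09 and 2.98 at C0, 1.38 and 1.42 at N1, and 2.32 and 2.09 at N2. It also rose between N2 and N1 (0.65 ± 0.11, adjusted p = 5.4e-05). At chr19:675131-678460 the Kcr ratio was 2.39 and 2.58 at C0, 0.94 and 0.81 at N1, and 1.57 at N2, and H3K27ac was 2.08 and 2.14 at C0, 0.96 in both N1 libraries, and 1.75 and 1.57 at N2. Both marks were thus under the background in N1 at that region, and both rose between N2 and N1 (Kcr 0.83 ± 0.16, adjusted p = 0.00073, and H3K27ac 0.77 ± 0.13, adjusted p = 7.9e-05). At chr26:142720-143803 Kcr was 2.74 and 2.68 at C0, 1.08 and 1.18 at N1, and 2.00 at N2, and rose between N2 and N1 (0.81 ± 0.14, adjusted p = 0.00025), as did H3K27ac (0.54 ± 0.12, adjusted p = 0.00074).

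At chr18:437454-441475 the marks parted. Kcr was 3.21 and 3.24 at C0, 0.97 and 0.88 at N1, and 1.66 at N2, the largest fall of any member in N1 (-1.77 ± 0.12, adjusted p = 1.2e-12), followed by a rise between N2 and N1 (0.83 ± 0.14, adjusted p = 0.00028). H3K27ac was 3.24 and 3.498 at C0, 1.46 and 1.66 at N1, and 1.75 and 1.51 at N2. It did not pass the test between N2 and N1 (0.06 ± 0.12, adjusted p = 0.67).

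Other members had far less Kcr at both deprivation times than in C0. At chr12:293718-294987 H3K27ac was 2.87 and 2.86 at C0, 1.02 and 0.99 at N1, and 0.95 and 0.89 at N2, and Kcr was 2.90 and 3.46 at C0, 1.24 and 1.11 at N1, and 1.21 at N2. Both were close to the background at both deprivation times, and the Kcr fall in N2 was the largest of any member (-1.37 ± 0.15, adjusted p = 3.2e-08). H3K36me2 in that region was 0.82 at C0, 0.86 and 0.85 at N1, and 0.76 and 0.77 at N2, so that H3K27ac and H3K36me2 were under the background there in N2. At chr11:576020-577187 Kcr was 4.18 and 4.57 at C0, 2.06 and 1.87 at N1, and 1.89 at N2 (N2 over C0 -1.19 ± 0.11, adjusted p = 7.9e-09), and at chr17:68257-69554 it was 3.81 and 3.53 at C0, 2.08 and 2.46 at N1, and 1.70 at N2 (-1.09 ± 0.12, adjusted p = 3.2e-08). At chr16:555766-556795 it was 4.40 and 3.79 at C0, 1.41 and 1.35 at N1, and 1.93 at N2 (N1 over C0 -1.54 ± 0.10, adjusted p = 9.8e-13, and N2 over C0 -1.07 ± 0.12, adjusted p = 5.4e-08), with a partial rise between N2 and N1 (0.47 ± 0.12, adjusted p = 0.0076). These 3 regions had mean Kcr ratios above 3.5 in C0 and remained above the background.

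The rises of Kcr against C0 were small and few, and the 4 largest in N1 came in regions whose H3K27ac ratios were also higher in N1 than in C0. At chr16:924419-925963 Kcr was 1.70 and 1.54 at C0, 1.99 and 2.04 at N1, and 2.63 at N2 (N1 over C0 0.31 ± 0.11, adjusted p = 0.011, and N2 over C0 0.69 ± 0.13, adjusted p = 4.8e-05). H3K27ac there was 2.33 and 2.13 at C0, 4.77 and 4.62 at N1, and 2.77 and 2.91 at N2, so that Kcr was highest in N2 and H3K27ac in N1. H3K36me2 in the same region was 0.53 at C0, 0.53 and 0.42 at N1, and 0.81 and 0.85 at N2 (N2 over N1 0.78 ± 0.14, adjusted p = 9.8e-06). At chr26:571144-572697 Kcr was 1.74 and 1.79 at C0, 2.14 and 2.33 at N1, and 2.17 at N2 (0.34 ± 0.10, adjusted p = 0.0047, and 0.30 ± 0.13, adjusted p = 0.045), at chr23:520908-522861 it was 2.32 and 2.52 at C0, 3.18 and 2.95 at N1, and 2.26 at N2 (N1 over C0 0.33 ± 0.09, adjusted p = 0.0018), and at chr26:565456-568855 it was 2.15 and 2.12 at C0, 2.51 and 2.76 at N1, and 2.05 at N2 (0.29 ± 0.10, adjusted p = 0.0076). At chr3:600373-603439 it was 1.94 and 1.88 at C0, 1.78 and 2.01 at N1, and 2.44 at N2 (N2 over C0 0.35 ± 0.13, adjusted p = 0.020).

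Several of these small rises depended on single libraries or on the background. With all libraries Kcr rose in N1 in 8 members, against 624 of the 3803 regions. With any C0 or N1 library left out fewer members passed the test, as did fewer of all regions. Without N1 replicate 2 the calls in N1 on chromosome 26 and chromosome 16 were lost (adjusted p = 0.065 at 571144, 0.11 at 565456 and 0.052 on chromosome 16), as was the call on chromosome 16 without C0 replicate 2 (0.083). The N2 call at chr26:571144-572697 was lost without C0 replicate 1 (0.091), C0 replicate 2 (0.053) or N1 replicate 2 (0.052). On pileup alone Kcr was lower in N1 at chr26:565456-568855 (-0.49) and at chr23:520908-522861 the difference was -0.0083, so that the sign there depended on the division by the background.

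The largest falls of Kcr between N2 and N1 were in members whose N1 ratios overlapped with or exceeded those of C0. Choice by this fall itself favours high N1 values. At chr3:839393-846359 it was 3.40 and 3.57 at C0, 3.63 and 3.70 at N1, and 2.23 at N2 (-0.70 ± 0.11, adjusted p = 5.8e-05). At chr18:324092-325646 it was 3.24 and 3.32 at C0, 3.30 and 3.06 at N1, and 1.97 at N2 (-0.67 ± 0.11, adjusted p = 0.00013), and on pileup alone the difference was 0.10. At chr23:573680-575069 it was 2.65 and 2.05 at C0, 2.79 and 2.70 at N1, and 1.79 at N2 (-0.61 ± 0.13, adjusted p = 0.0017). In all 3, and on chromosome 15 (63966 to 65021), H3K27ac also fell between N2 and N1, so that both acyl marks were lower in N2 than in N1, while on chromosome 3 (839393 to 846359) H3K27ac stayed above its C0 ratios. H3K36me2 differed among them, since it fell at chr18:324092-325646 and did not pass the test on chromosome 3 (1.03 and 1.00 at N2, 1.19 and 1.09 at N1, -0.17 ± 0.11, adjusted p = 0.19).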

How the data were processed

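H3K27ac, H3K36me2 and Kcr were measured by ChIP-seq in C0, N1 and N2. As the submitters' processing notes and the methods of the study describe, the authors trimmed reads with Trim Galore, aligned them with BWA, marked duplicates with Picard, used deepTools and called broad peaks with MACS2 against input. Tool versions, the version of the N. oceanica genome used for ChIP-seq and the merging of peaks were not given in the sources used here. Deposited by the authors were a coverage signal (pileup) and a local background (lambda) for every region and library, scaled by library. Whether the pileup is a maximum, a median or a value at 1 position was not stated. It is not a count of reads, so no count model was used.

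Enrichment was log2(pileup + 0.5) minus log2(lambda + 0.5), a scale that understates changes of low values, and printed ratios are pileup over lambda. For each mark limma-trend (limma 3.58.1, R 4.3.3) was fitted to all regions and all distinct libraries of the 3 conditions, without a replicate block and with 3 residual degrees of freedom for H3K27ac and 2 each for H3K36me2 and Kcr. A region was called where its p, adjusted by Benjamini-Hochberg over all 3803 regions, was under 0.05. The scripts were tested on simulated data. Tables and plots were made with Python 3.11.15, pandas 2.3.3, numpy 2.4.6 and matplotlib 3.10.9.

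The members, the tests and the rule for naming regions were chosen with earlier results of these data known. For each of the 5 tested comparisons the rule named the 4 called members with the largest positive and the 4 with the largest negative log2 difference whose libraries did not overlap. As description it named the 5 members with the lowest C0 H3K36me2, the 3 with the largest differences of H3K27ac and H3K36me2 from C0 in each direction, and the 2 regions on each side of every ratio threshold. Regions named outside this rule, all neighbours of such members, were chosen after their values were seen.

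Alternatives were a pseudocount of 1, pileup alone, centring on library medians, an equal median and spread per library, a filter on low pileup, a replicate block, a fit to 2 conditions only, leaving out each library, and a C0 H3K36me2 limit of 0.8. A further 12 libraries have no label here, and their 36 columns were not used. Columns of a score per library and of the authors' own comparisons (mean, fold change, its error, test statistic, p-value, adjusted p-value and status) were not used either.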

Additional observations from a re-analysis of the deposited data

Results flagged for a closer look

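Over the 3 marks, whichever of them a region had been named for, there were 21 cases in which 1 of the 39 members named for a tested difference, a difference from C0 or the lowest C0 H3K36me2 moved to opposite sides of C0 on the 2 days of deprivation, with every N1 library on one side of all C0 libraries and every N2 library on the other, and the difference between N2 and N1 passed the test. H3K27ac was above C0 in N1 and below it in N2 at chr15:63966-65021 (N2 minus N1 -1.09 on the log2 scale), chr3:1010019-1011193 (-1.27), chr11:833831-835334 (-1.06), chr18:324092-325646 (-0.80), chr18:159990-161424 (-0.80), chr11:254619-258480 (-0.66), chr13:407820-408959 (-0.75), chr6:959385-961073 (-0.72) and chr23:404158-405767 (-0.75). H3K36me2 was above C0 in N1 and below it in N2 at chr18:324092-325646 (-0.54), chr11:254619-258480 (-0.53) and chr6:1290283-1291481 (-0.33). It was below C0 in N1 and above it in N2 at chr11:211911-214985 (1.01), chr21:650572-652203 (0.99), chr18:183120-184199 (0.92), chr30:332111-336004 (0.78) and chr16:555766-556795 (0.39). Kcr was above C0 in N1 and below it in N2 at chr23:520908-522861 (-0.43), chr26:565456-568855 (-0.35), chr3:839393-846359 (-0.70) and chr23:573680-575069 (-0.61). The C0 side of H3K36me2 and the N2 side of Kcr rest on 1 library each, and the C0 levels of H3K27ac and H3K36me2 entered the rule that chose the members. Most of the 39 members were named for large differences in these same data, which favours such cases. Their frequency over all members or all regions was not counted, so nothing is read from the number of cases. No groups of 4 or more libraries existed in which a single library could have been tested as an outlier.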

How the results depend on the processing

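Counts are of members out of 264 unless stated, given as those that rose and those that fell where both changed by more than 1.5 times. On pileup alone, Kcr rose in 1 member for N1 against C0 and fell in 125 for N2 against C0, between N2 and N1 Kcr rose in 195 and fell in 0, H3K27ac rose in 7, and H3K36me2 rose in 214 and fell in 0. The last shift was common to the table, whose median log2 difference of H3K36me2 was 0.25 on pileup alone against 0.05 with division by the background. Over all 3803 regions on pileup alone, Kcr rose in 354 for N1 against C0. Between N2 and N1, H3K27ac rose in 659, and H3K36me2 rose in 2016 and fell in 96. The median log2 difference of Kcr over all regions was then -0.21 for N2 against C0 and 0.35 between N2 and N1. Centred on library medians, Kcr rose in 81 and fell in 55 for N1 against C0, rose in 30 and fell in 35 for N2 against C0, and rose in 18 and fell in 39 between N2 and N1, and H3K27ac rose in 60 and fell in 61 between N2 and N1. With an equal median and spread, Kcr rose in 72 and fell in 57 for N1 against C0, rose in 51 and fell in 33 for N2 against C0, and fell in 46 between N2 and N1. H3K27ac then rose in 60 and fell in 51 between N2 and N1, and H3K36me2 rose in 87 and fell in 11. Over all 3803 regions, Kcr for N1 against C0 rose in 1625 and fell in 533 after centring, and in 1579 and 579 with equal spread. H3K27ac between N2 and N1 rose in 1382 and fell in 585 after centring, and in 1222 and 451 with equal spread. H3K36me2 rose in 930 and fell in 493 with equal spread. The median log2 difference of Kcr over all regions, centred and with equal spread, was 0.08 and -0.02 for N2 against C0. Between N2 and N1 it was -0.13 and -0.14. With regions in the lowest 25% of mean pileup left out, 83 members remained for H3K36me2. Of these, 41 rose and 3 fell between N2 and N1, against 546 and 586 of the 2852 regions left. With the H3K36me2 limit at 0.8, 186 members remained. Of these, 9 rose for H3K27ac and 3 fell for H3K36me2 between N2 and N1, against 745 and 655 of the 3803 regions. Leaving out 1 library gave 2 to 8 rises of Kcr for N1 against C0, and 82 to 133 rises and 3 to 7 falls of H3K36me2 between N2 and N1.

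On pileup alone 6 differences of named members changed sign. For Kcr in N1 against C0 these were chr23:520908-522861 (-0.0083) and chr26:565456-568855 (-0.49), for Kcr between N2 and N1 chr18:324092-325646 (0.10), and for H3K36me2 between N2 and N1 chr18:324092-325646 (0.075), chr26:565456-568855 (0.088) and chr6:1290283-1291481 (0.027). The cause was not tested. No other alternative turned a tested difference of a named member round, and the pseudocount of 1 moved no count by more than 1.5 times. Leaving out the only distinct Kcr library of N2 left its comparisons without a value.

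Samples with the same replicate number did not deviate together (r = -0.023 to 0.034 across all regions), and the labels do not say that the number marks a shared culture. With a replicate block, H3K36me2 rose in 133 and fell in 9 members between N2 and N1, and H3K27ac rose in 14 and fell in 144. Kcr then rose in 8 and fell in 215 for N1 against C0. Its median log2 difference in the members was -0.47 for N2 against C0 and 0.07 between N2 and N1. Over all regions these medians were -0.37 and 0.01. Over all 3803 regions with the block, H3K36me2 rose in 1024 and fell in 627 between N2 and N1, and H3K27ac rose in 724 and fell in 1567. Kcr for N1 against C0 rose in 623 and fell in 2442. With 1 or 2 distinct libraries a group, small differences, as for Kcr between N2 and N1, are near the limit of what these libraries can show.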

Other observations

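Some members named by the rule were not described above. At chr18:183120-184199 H3K36me2 was 0.74 at C0, 0.43 and 0.50 at N1, and 0.76 and 1.07 at N2, and rose between N2 and N1 (0.92 ± 0.14, adjusted p = 3.2e-07). H3K27ac there was 3.30 and 3.37 at C0, 1.92 and 1.83 at N1, and 1.97 and 1.87 at N2, with no difference past the test between N2 and N1. At chr1:1292085-1293451 H3K27ac was 2.78 and 2.93 at C0, 2.18 and 2.23 at N1, and 1.20 and 1.26 at N2, a stepwise decrease whose second step passed the test (-0.83 ± 0.11, adjusted p = 6.1e-06). At chr18:652079-654549 it was 2.87 and 2.58 at C0, 1.28 and 1.40 at N1, and 1.05 and 1.03 at N2, so that this member had H3K27ac close to the background and H3K36me2 under it in N2. At chr6:959385-961073, one of the few members in which H3K36me2 was lower in both N2 libraries than in C0, its ratio was 0.76 at C0, 0.72 and 0.80 at N1, and 0.58 and 0.71 at N2.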
